A study of Mus musculus with 12 samples.

Results

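The genes described here encode splicing factors and proteins of the small nuclear ribonucleoproteins, the snRNPs. They were taken as every gene whose single symbol in the annotation of the probe sets began with Srsf, Sf3a, Sf3b, Snrp, Hnrnp or U2af followed by the family's number or letter. This gave 50 of 18193 named genes, measured by 142 of 45101 probe sets. They fell into 10 SR protein genes with 33 probe sets, 9 Snrp genes with 18, 9 Sf3 genes with 30, 3 U2af genes with 3, and 19 hnRNP genes with 58.

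The samples formed 4 groups of 3 arrays each, 12 arrays in all. Kidney RNA of mouse, bought from Ambion, entered the amplification at 10 ng. Universal Mouse Reference RNA, which the labels credit to Strategene and which as a product is a pool made from cell lines, entered at 0.3, 3 and 10 ng. The labels name no mutation or treatment for any group, and they give neither strain, age nor the meaning of the letters pRS in the sample names. The labels also do not say whether the 3 arrays of a group came from separate animals, extractions or amplifications, so p-values measure only the spread between arrays, which may be technical. The kidney label was checked against 10 genes of the renal tubule, whose summed signal was 58285 to 59829 on the kidney arrays, against 202 to 259 on the reference arrays at 10 ng.

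Introns are removed from RNA by the spliceosome, which is built from snRNPs and many other proteins. The U1 snRNP recognises the start of the intron, the U2 auxiliary factor recognises its end, and the U2 snRNP, with its SF3A and SF3B subcomplexes, settles on the branch point. Most snRNPs share a ring of Sm proteins around their RNA. SR proteins carry a domain rich in arginine and serine, bind enhancers in exons and favour their inclusion, whereas hnRNP proteins coat nascent RNA and often favour skipping. Several SR and hnRNP proteins limit their own level through alternative exons that send the transcript to decay.

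Promoters are shown for the member with the largest fall in kidney in each of the SR, snRNP and hnRNP groups, among members with a promoter in RefSeq's table for build GRCm38.p6, to show the start regions of genes the comparison turns on. Each runs from 250 bases before to 50 bases after the annotated start, 5′ to 3′ on the strand of the gene. Srsf6 lies on the plus strand (chr2:162931258-162931557), Sf3b3 on the minus strand (chr8:110846754-110847053) and Hnrnpa1 on the plus strand (chr15:103240147-103240446). Capitals mark every match, on either strand, to 7 motifs: the CCAAT box, the GC box GGGCGG, the E box CACGTG, the ETS core CCGGAAG, the YY1-type AAGATGG, the TATA box (letters TATAAA) and the E2F-type TTCCCGC. No matches overlap one another in these 3 promoters.
Srsf6: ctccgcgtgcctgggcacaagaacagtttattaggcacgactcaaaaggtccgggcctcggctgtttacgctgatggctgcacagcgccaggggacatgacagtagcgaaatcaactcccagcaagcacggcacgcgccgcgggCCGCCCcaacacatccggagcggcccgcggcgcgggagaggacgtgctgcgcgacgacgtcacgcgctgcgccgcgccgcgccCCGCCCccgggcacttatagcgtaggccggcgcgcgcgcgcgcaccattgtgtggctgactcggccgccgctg
Sf3b3: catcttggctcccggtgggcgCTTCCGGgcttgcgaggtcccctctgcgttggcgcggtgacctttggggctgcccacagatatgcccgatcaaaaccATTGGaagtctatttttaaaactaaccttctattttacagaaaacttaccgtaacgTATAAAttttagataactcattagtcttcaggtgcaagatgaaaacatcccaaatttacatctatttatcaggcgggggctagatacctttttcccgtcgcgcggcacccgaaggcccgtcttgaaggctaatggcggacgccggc
Hnrnpa1: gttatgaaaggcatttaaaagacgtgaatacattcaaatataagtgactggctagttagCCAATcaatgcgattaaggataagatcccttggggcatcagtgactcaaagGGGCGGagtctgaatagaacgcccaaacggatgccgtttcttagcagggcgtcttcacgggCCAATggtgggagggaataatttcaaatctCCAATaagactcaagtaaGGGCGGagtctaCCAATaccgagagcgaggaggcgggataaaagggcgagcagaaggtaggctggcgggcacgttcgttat
Srsf6 held 2 matches to GGGCGG. Sf3b3 held 1 match each to the CCAAT box, to CCGGAAG and to the TATA box. Hnrnpa1 held 4 matches to CCAAT and 2 to GGGCGG.

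The table held promoters for 44 of the 50 genes, 61 in all. CCGGAAG was found in 32.8% of them, against 8.86% of all 32851 promoters and 15.8% of the 13265 promoters of tested genes. It was present for 10 of 15 Snrp and Sf3 genes, among them Snrpe, Snrpg, Snrpc, Snrpb2 and Sf3a1, but for 3 of 10 SR genes and 2 of 17 hnRNP genes. CCAAT was found in 47.5% of the members' promoters, against 37.4% of all promoters, and was present for 12 of 17 hnRNP genes. GGGCGG was found in 67.2%, against 35.7% of all promoters and 59.7% of those of tested genes, and was present for 9 of 10 SR genes. TTCCCGC, an E2F-type motif, was found in 18.0%, against 4.6% of all promoters and 7.79% of those of tested genes. The 18.0% stands for 11 promoters of 8 genes. Overlapping promoters of a gene, such as those of Hnrnpa2b1 and Sf3b2, were counted separately in all these shares. The remaining shares for members and for all promoters were 6.56% and 7.15% for the E box CACGTG, 3.28% and 6.34% for the YY1-type AAGATGG, and 9.84% and 13.6% for TATAAA. A gene was counted when any of its promoters held a match, whereas the shares are per promoter. The counts of genes therefore have no like share of all genes beside them. The motifs were chosen after the values had been seen, and a match describes letters in the window, not a bound site.

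The first comparison set kidney RNA against reference RNA at the same input of 10 ng. Most splicing genes were lower in kidney: of the 49 members tested, 37 fell, 1 rose and 11 did not pass the test. Among all 12820 tested genes 62.7% were called, 35.6% lower and 27.1% higher, at an adjusted p of 0.05 from limma with Benjamini-Hochberg adjustment over all 27022 tested probe sets. The median log2 fold change was -0.76 over the members and -0.19 over all tested genes. In bulk RNA such as this, fewer cells of a type and less RNA per cell cannot be told apart. Per array, the median log2 difference of the members from the mean of the reference arrays at 10 ng was -0.74, -0.80 and -0.76 on the kidney arrays, against -0.02, 0.05 and -0.02 on the reference arrays themselves.

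Each gene is represented here by its brightest probe set, and a signal is the authors' value on the array, scaled so that the trimmed mean of every array is 500. The groups did not overlap for 42 of the 49 members, 40 lower and 2 higher in kidney, where 73.2% of all tested genes did not overlap, 41.5% lower and 31.7% higher. Set against all 9 reference arrays at 0.3, 3 and 10 ng, the kidney arrays lay below every one for 33 members and above every one for Snrpn and Hnrnpul2. The shares for all tested genes were 23.0% below and 23.6% above. When a gene was counted only if every tested probe set of it was called in one direction, 23 members were lower and 1 was higher, 24 of 49, where 27.7% of all genes were lower and 23.2% higher by the same rule.

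**Figure D1:**
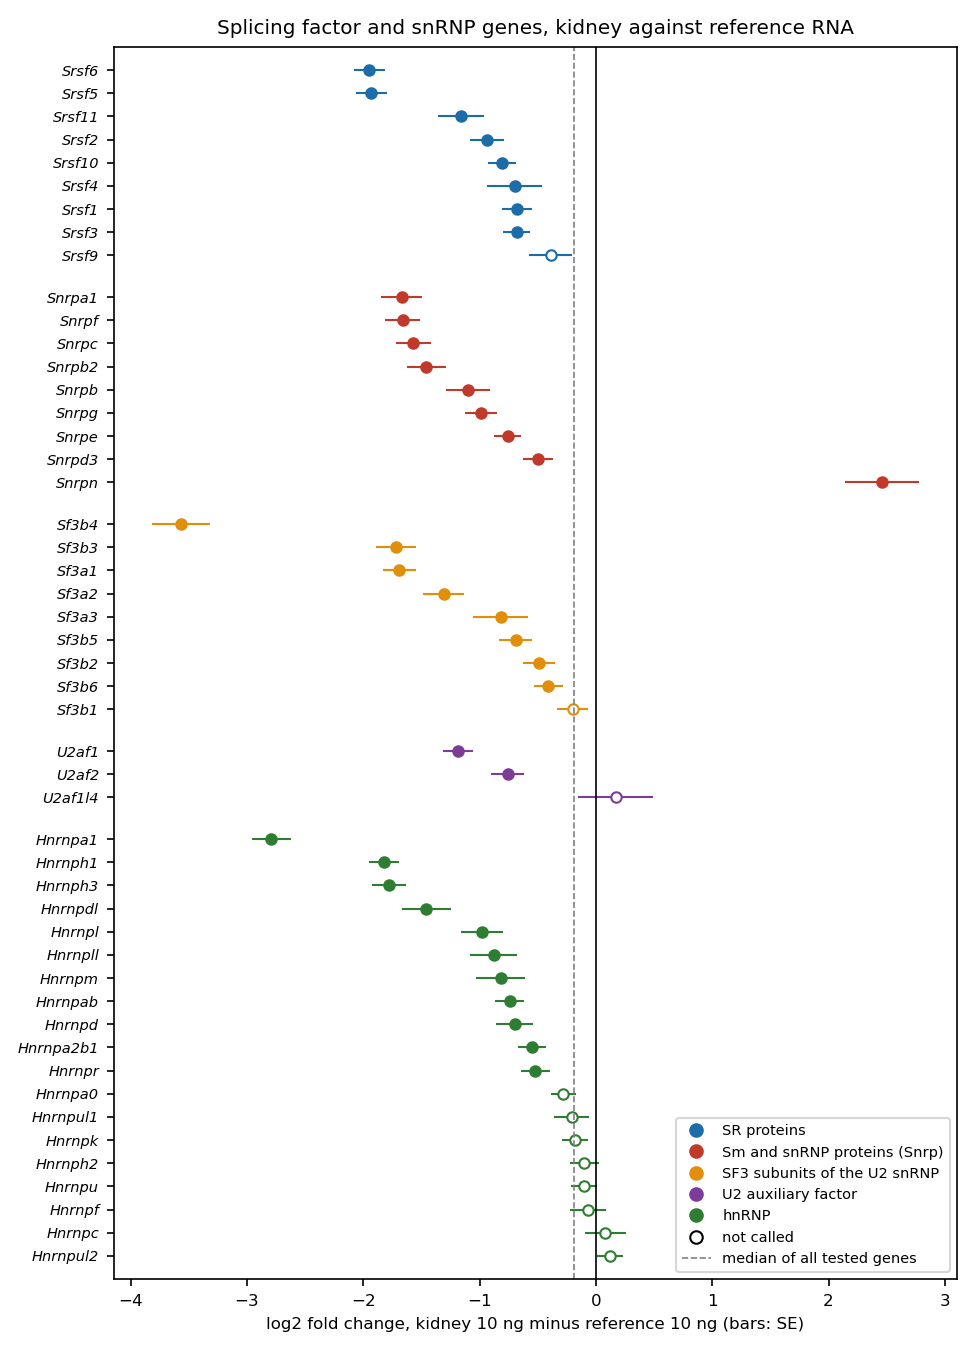
Log2 fold change, kidney 10 ng minus reference 10 ng, of the 49 tested splicing genes, 1 row per gene, grouped by family; bars are standard errors, open circles mark genes that did not pass the test, and the dashed line is the median of all tested genes at -0.19. Snrpn is the only called gene to the right of 0, with reference arrays all below background so that its measurable change is only a bound of at least 2.27-fold, and Sf3b4 lies farthest to the left, at -3.57.

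The SR proteins fell nearly as a group: 8 of 9 tested members were lower in kidney, with a median log2 fold change of -0.81. Srsf12 did not pass the filter on low signals and was not tested, with signals of 18.1 ± 7.48 in kidney and 6.47 ± 4.59 in reference RNA at 10 ng (SD, n = 3 each), all below the background of 33.65. Srsf6, which binds exonic enhancers, gave signals of 1419, 1151 and 1224 in kidney, against 4819, 5058 and 4764 in reference RNA. Every kidney array lay below every reference array, and the signal was 3.86-fold lower (log2 fold change -1.95, SE 0.134, adjusted p = 0.000137). All 4 probe sets of Srsf6 were lower, with log2 fold changes of -0.95 to -1.95.

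Srsf5, a related enhancer-binding SR protein, gave 2185, 2118 and 2047 in kidney, against 7718, 9098 and 7561 in reference RNA. The groups stood apart, with a 3.82-fold lower signal in kidney (log2 fold change -1.93, SE 0.132, adjusted p = 0.000134). Srsf11, an SR-like protein, gave 710.3, 561 and 764 in kidney, against 1651, 1244 and 1667 in reference RNA. It fell 2.23-fold with no overlap (log2 fold change -1.16, SE 0.194, adjusted p = 0.00364).

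Srsf2, a founding SR protein that also acts in transcription elongation, gave 5509, 5462 and 5664 in kidney, against 9852, 12459 and 9719 in reference RNA. The kidney arrays were tightly grouped below the reference arrays, with a log2 fold change of -0.94 (SE 0.146, adjusted p = 0.00285). The other called SR genes fell less: Srsf10, a repressor when it is dephosphorylated, by 0.81 on the log2 scale, Srsf4 by 0.70, and Srsf1 and Srsf3 by 0.68 each. Srsf9 gave 403, 579 and 423 in kidney, against 555, 642 and 627 in reference RNA, and its log2 fold change of -0.39 did not pass the test (adjusted p = 0.112).

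**Figure D2:**
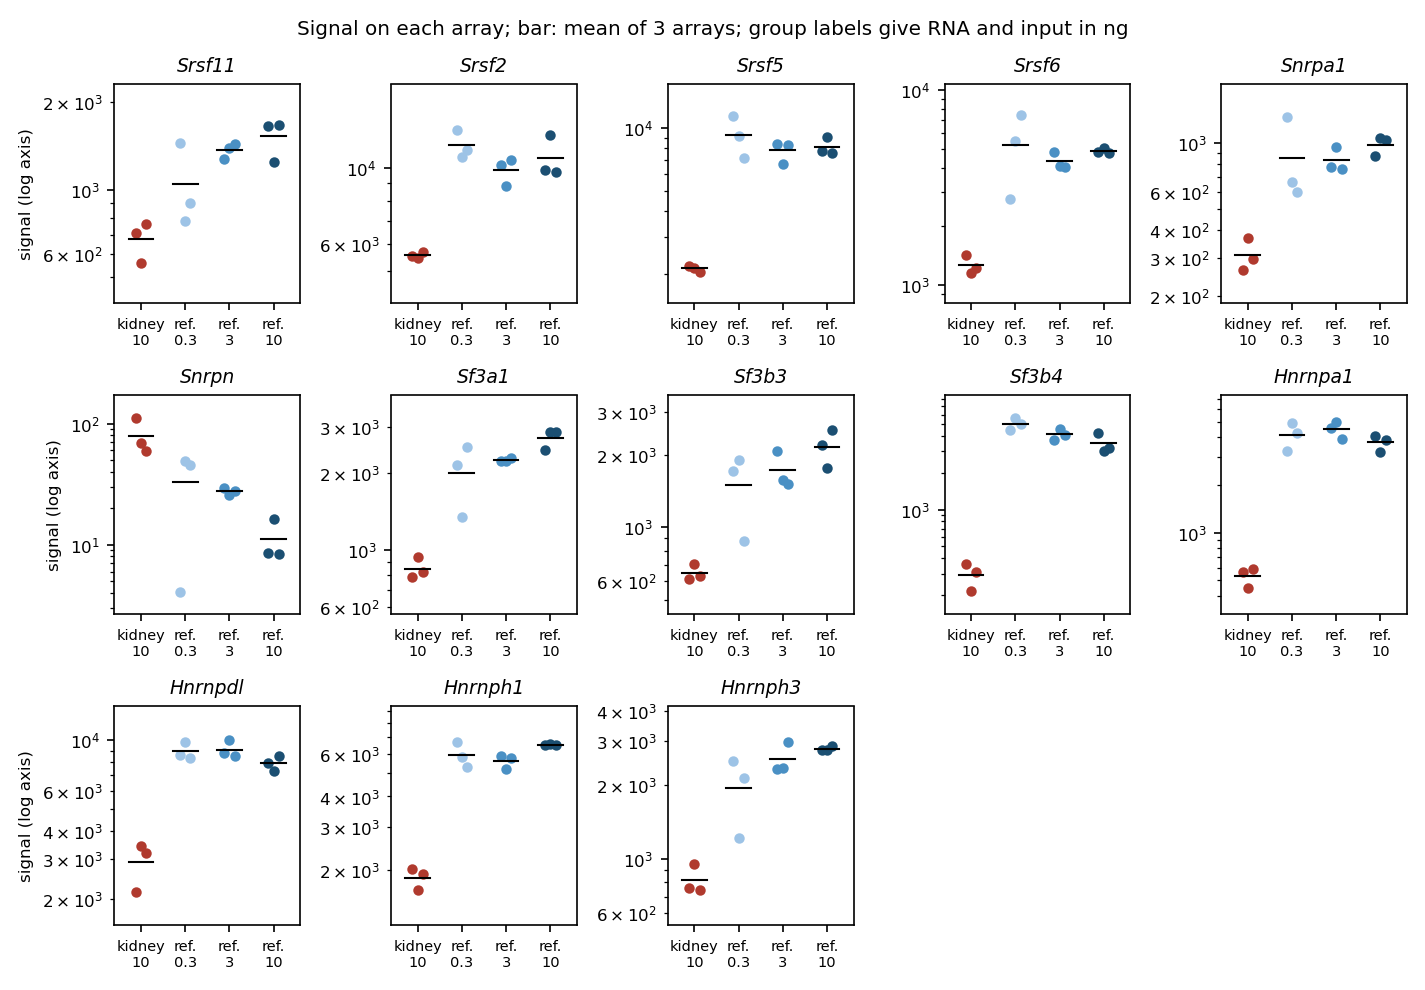
Signal on every array, on a log axis, of the 13 members with the largest called changes in their groups, for kidney at 10 ng and reference RNA at 0.3, 3 and 10 ng (1 point per array, bars are means of 3 arrays). The kidney points lie below all 9 reference points for 12 genes and above them for Snrpn.

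Of the 9 Snrp genes, 8 were lower in kidney and 1 was higher, and their median log2 fold change was -1.10. Of the Sm ring genes among the members, Snrpf, Snrpb, Snrpg, Snrpe and Snrpd3 were lower in kidney. Their log2 fold changes were -1.66 for Snrpf, -1.10 for Snrpb, -0.99 for Snrpg, -0.76 for Snrpe and -0.50 for Snrpd3. Snrpg, for example, gave 5830, 5986 and 6767 in kidney, against 11499, 13577 and 11863 in reference RNA. The Sm gene Snrpn was higher. The Sm ring genes Snrpd1 and Snrpd2 are not among the members, since their probe sets also name another gene. The proteins particular to 1 snRNP fell as well: Snrpc of the U1 snRNP by 1.57 and Snrpb2 of the U2 snRNP by 1.46 on the log2 scale.

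Snrpa1, the U2 snRNP protein that pairs with Snrpb2, gave 262, 368 and 294 in kidney, against 872, 1051 and 1032 in reference RNA. It was 3.19-fold lower with no overlap (log2 fold change -1.67, SE 0.176, adjusted p = 0.000618).

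Snrpn was the 1 member that rose. It encodes an Sm protein that can take the place of Snrpb, is imprinted and is best known from brain. Its single probe set gave 111, 68.4 and 58.8 in kidney, against 8.6, 16.4 and 8.4 in reference RNA, where every array was below the background of 33.65. Set against that background, the kidney signal was at least 2.27-fold higher. The adjusted p of 0.00131 came from limma's fit of the measured signals, not from this bound, and the gene passed the signal filter through the kidney arrays alone. Another 6 probe sets name Snrpn together with Snurf and were not used. With the filter set on the mean of all 12 arrays, Snrpn was not tested.

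The SF3 subunits of the U2 snRNP fell in 8 of 9 cases, with a median log2 fold change of -0.82. Sf3b4, an RNA-binding subunit of SF3B, gave 359.9, 214 and 308 in kidney, against 4258, 2997 and 3210.0 in reference RNA. This was the largest change of any member, 11.8-fold lower with no overlap (log2 fold change -3.57, SE 0.248, adjusted p = 0.000143). Its second probe set fell too, with 108, 111 and 73.8 in kidney, against 633, 430.1 and 571 in reference RNA (log2 fold change -2.44, adjusted p = 0.000429).

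Sf3b3, a scaffold subunit of SF3B, gave 609, 700.4 and 625 in kidney, against 2194, 1758 and 2517 in reference RNA. It was 3.30-fold lower (log2 fold change -1.72, SE 0.174, adjusted p = 0.000536). Sf3a1, a subunit of SF3A, gave 783, 937 and 819.9 in kidney, against 2450.2, 2878 and 2867 in reference RNA, a log2 fold change of -1.69 (SE 0.142, adjusted p = 0.000275). Neither gene overlapped between the groups.

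Of the remaining SF3 genes, Sf3a2 fell by 1.31 on the log2 scale, Sf3a3 by 0.82, Sf3b5 by 0.69, Sf3b2 by 0.49 and Sf3b6, which lies close to the branch point, by 0.41. Sf3b1, the subunit that holds the branch-point helix, did not pass on its brightest probe set, with 4877, 5234 and 4949 in kidney, against 5901, 5147 and 6290.2 in reference RNA, groups that overlapped. Its other 3 probe sets were called lower, as described below. U2af1 and U2af2, the subunits that read the end of the intron, fell by 1.19 and 0.76. U2af1l4, a relative of U2af1, did not pass, with 302, 246 and 510.0 in kidney, against 359, 231 and 322 in reference RNA.

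The hnRNP genes were more divided by their brightest probe sets: 11 of 19 fell, none rose, and 8 did not pass the test. Their median log2 fold change was -0.55. The share called was 57.9%, where 62.7% of all tested genes were called, 35.6% lower and 27.1% higher. Of the 8, Hnrnpu, Hnrnpf and Hnrnpc had other probe sets that were called lower, as described below. Hnrnpa1, a repressor of exon inclusion, gave 561, 449 and 589 in kidney, against 4062, 3229 and 3837 in reference RNA. It was 6.93-fold lower with no overlap (log2 fold change -2.79, SE 0.170, adjusted p = 9.2e-05). Its other tested probe sets gave log2 fold changes of -2.61 and -3.61, and 3 further probe sets that also name other genes were not used.

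Hnrnph1, which binds runs of guanine, gave 2006, 1651 and 1912 in kidney, against 6529, 6566 and 6489 in reference RNA. The groups stood apart, 3.52-fold lower in kidney (log2 fold change -1.82, SE 0.130, adjusted p = 0.000158). Its relative Hnrnph3 gave 756, 952 and 748 in kidney, against 2776, 2762 and 2873 in reference RNA, a log2 fold change of -1.78 (SE 0.145, adjusted p = 0.000245). Their relatives Hnrnpf and Hnrnph2 did not pass, with log2 fold changes of -0.07 and -0.10.

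Hnrnpdl, a relative of Hnrnpd, gave 2163, 3423 and 3198 in kidney, against 7966, 7331 and 8521 in reference RNA. It was 2.76-fold lower with no overlap (log2 fold change -1.46, SE 0.210, adjusted p = 0.00203). The other called hnRNP genes fell by 0.52 to 0.98 on the log2 scale: Hnrnpl, which binds CA repeats, by 0.98, Hnrnpll by 0.88, Hnrnpm by 0.82, Hnrnpab by 0.74, Hnrnpd, which binds AU-rich elements, by 0.70, Hnrnpa2b1 by 0.55 and Hnrnpr by 0.52.

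The hnRNP genes that did not pass included Hnrnpk, a poly(C)-binding protein, with 12706, 12406 and 12449 in kidney, against 13800.2, 14783 and 14046 in reference RNA. These groups did not overlap, yet the log2 fold change was -0.18 with a 95% confidence interval of -0.46 to 0.10. Hnrnpc, which binds uridine tracts, had a log2 fold change of 0.08 (-0.35 to 0.51), Hnrnpa0 one of -0.28 (-0.55 to -0.01, adjusted p = 0.0715), and Hnrnpul1 one of -0.21 (-0.58 to 0.15). Hnrnpul2 gave 2548, 2460 and 2598 in kidney, against 2338, 2436 and 2237 in reference RNA, a log2 fold change of 0.12 (-0.17 to 0.40).

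Other genes of the splicing pathway were lower in kidney too. In 5 lists with 153 tested genes, 99 genes were lower, 3 were higher and 51 did not pass, and the median of their log2 fold changes was -0.73. The share called was 66.7%, close to the 62.7% of all tested genes, among which 35.6% were lower and 27.1% higher. By list the share called ran from 57.1% for core spliceosome proteins to 83.3% for exon junction and SR-related proteins. The median over all tested genes was -0.19. Among proteins of snRNP assembly and other snRNP proteins, 21 of 31 fell, including Snrnp48 of the minor spliceosome by 2.0 on the log2 scale, Lsm8 by 1.90, Lsm2 by 1.76 and Gemin2, a partner of the SMN protein, by 1.71. Among core spliceosome proteins and helicases, 28 of 49 fell, led by Prpf3 (by 1.70), Ddx39b (by 1.63), Puf60 (by 1.32) and Prpf38a (by 1.31). Exon junction and SR-related proteins fell in 15 of 18 cases, with Scaf8 by 2.29, Luc7l by 1.67, Rbm8a by 1.55 and Srek1 by 1.27.

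Of the kinases and importers that act on SR proteins, 6 of 9 fell, 66.7%, where 62.7% of all tested genes were called and 35.6% were lower. Clk1, a kinase that phosphorylates SR proteins in the nucleus, gave 1936, 1813 and 1800.2 in kidney, against 5005, 5107 and 4792 in reference RNA, a log2 fold change of -1.42 (adjusted p = 0.000239). Its relatives Clk2 and Clk4 fell by 1.45 and 1.24, and Srpk2, an SR protein kinase, by 1.14.

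Other regulators of splicing held the genes that rose. Of 46 tested, 29 fell and 3 rose, 69.6% called, against 62.7% of all tested genes, where 35.6% were lower and 27.1% higher. Esrp1, an epithelial splicing regulator, gave 887, 598 and 732 in kidney, against 38.9, 51.7 and 84.2 in reference RNA, a 12.3-fold higher signal (log2 fold change 3.63, adjusted p = 0.000282). Rbm24 gave 133, 216 and 128 in kidney, against 3.0, 35.2 and 21.0 in reference RNA (adjusted p = 0.0095), and since 2 of its 3 reference arrays were below background the size of its rise is uncertain. For both Esrp1 and Rbm24, only kidney of the 2 groups compared reached the filter's signal of 65.4. Within this comparison they therefore entered the test through the group where they are high. Pcbp3 rose by 2.16 on the log2 scale. Elavl2, a neuronal RNA-binding protein, was below background on every kidney array, against 904, 1313 and 1007 on the reference arrays at 10 ng, a kidney signal at least 31.5-fold lower. Elavl2 passed the filter through reference arrays alone, so it too entered the test through the group where it is high. Celf5 and Elavl4, also known from neurons, were lower as well (log2 fold changes -3.40 and -3.29), as was Tia1 (-2.99).

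Markers of other cell types moved with the comparison. All 13 tested proliferation markers were lower in kidney, with a median log2 fold change of -4.51. Their summed signal was 2728 to 3258 on the kidney arrays, where 3 of the 13 were below background on every array, against 39828 to 42532 on the reference arrays at 10 ng. These 3 passed the signal filter through reference arrays alone, so they entered the test through groups where they are high. The sizes of their falls, which the median includes, are uncertain. The 8 neuron markers summed to 251 to 280 in kidney, against 1610 to 1710 in reference RNA. Only 2 of them were tested, of which 1 was called lower and 1 did not pass. The 9 blood and endothelial markers summed to 18643 to 19379, against 14457 to 15238, but they split by gene. Of these 9, 4 were called higher and 5 lower, with log2 fold changes of -5.02 to 7.57. Among all tested genes 27.1% were called higher and 35.6% lower. The part of these differences in the fall of the splicing genes was not tested.

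The level of the fall depends on how the arrays are scaled. The median of all tested genes was -0.19 as deposited, -0.10 after quantile normalisation and 0.06 when each array was centred on its own median. Relative to that median, the members stood at -0.57, -0.67 and -0.57. The number called was 37 lower and 1 higher as deposited, 35 and 1 after quantile normalisation, and 29 and 1 after centring, where 27.3% of all tested genes were called lower.

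Probe sets of the same gene often gave different sizes of change. At the level of probe sets, 95 of the 135 tested for the members were lower in kidney, 1 was higher and 39 did not pass, where 60.1% of all tested probe sets were called and 37.2% were lower. Calls within a member never opposed each other: 0 of the 27 members with more than 1 called probe set had 1 higher and another lower, against 245 of 2997 genes in all, 8.17%. The 1 probe set called higher was that of Snrpn, which had no other. With all other calls lower, opposing calls within a member could not arise, so the 0 is no measure of agreement between probe sets. By size, 34 members had more than 1 tested probe set, and the median gap between the highest and lowest log2 fold change of a gene was 0.97, against 0.81 for 5763 genes. The gap was over 1 for 16 of the 34 members, 47.1%, against 41.6% of all such genes. Every tested probe set was called for 14 of the 34, 41.2%, some for 18, 52.9%, and none for 2, 5.88%, against 37.6%, 42.6% and 19.8% of all such genes. The place of each probe set in its transcript was not analysed here.

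**Figure D3:**
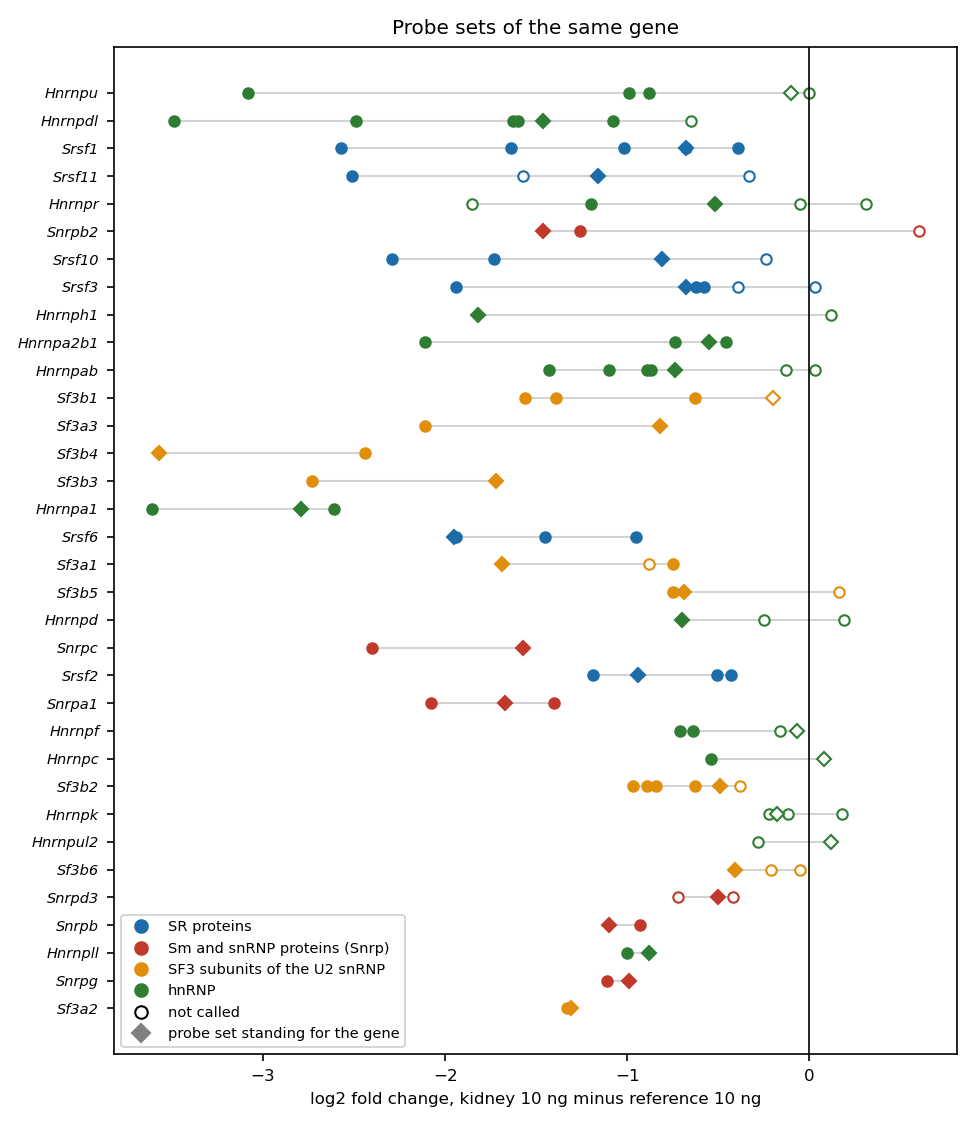
Log2 fold change, kidney 10 ng minus reference 10 ng, of every tested probe set of the 34 members with more than 1, ordered by the gap within the gene; filled points were called, open points were not, and diamonds mark the brightest probe set, which represents the gene. Hnrnpu spans the widest range, from -3.08 to 0, and no gene has filled points on both sides of 0.

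Hnrnpu, a large nuclear RNA- and DNA-binding protein, had the largest gap, 3.08. Its brightest probe set, 1423050_s_at, gave 12598, 12827 and 12895 in kidney, against 13450.1, 14372 and 13318 in reference RNA, and did not pass (log2 fold change -0.10, adjusted p = 0.466). Probe set 1434390_at gave 127.0, 125 and 127 in kidney, against 1104, 1089 and 1090.0 in reference RNA, without overlap. It was called lower (log2 fold change -3.08, SE 0.110, adjusted p = 1.9e-05).

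The other 3 probe sets of Hnrnpu lay between these. Probe set 1423051_at gave 1987, 2024 and 2045 in kidney, against 3823, 4304 and 3942 in reference RNA, and 1450849_at gave 356, 358 and 355 in kidney, against 700.5, 658 and 625 in reference RNA. Both were called lower, with log2 fold changes of -0.99 and -0.88. Probe set 1434391_at showed no such gap, with 2737, 2734 and 2787 in kidney, against 2702, 2682 and 2883 in reference RNA.

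Hnrnpdl had 7 tested probe sets, of which 6 were lower, and its gap was 2.84. The strongest, 1424252_at, gave 674, 503 and 279 in kidney, against 5148, 5603 and 4742 in reference RNA (log2 fold change -3.49, SE 0.332, adjusted p = 0.000431). The weakest, 1456698_s_at, gave 1112, 1910.1 and 1019 in kidney, against 2146, 1639 and 2366 in reference RNA, overlapped and did not pass (log2 fold change -0.65, adjusted p = 0.102).

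Srsf1, which promotes the use of nearby splice sites, was lower by all 6 of its tested probe sets, but with log2 fold changes of -0.39 to -2.57. Probe set 1452430_s_at gave 739.9, 694 and 659 in kidney, against 4139, 3960.4 and 4398 in reference RNA. Probe set 1434972_x_at gave 7745, 7399 and 7496 in kidney, against 9846, 9481 and 10259.9 in reference RNA. Neither pair of groups overlapped, and the falls were 2.57 and 0.39 on the log2 scale (adjusted p = 4.1e-05 and 0.0289).

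Srsf3, Srsf10 and Srsf11 showed the same kind of spread. For Srsf3, 1438215_at gave 161, 191 and 106 in kidney, against 581, 571 and 592 in reference RNA (log2 fold change -1.94, adjusted p = 0.000999), whereas 1416151_at gave 1213, 1238 and 1524 in kidney, against 1365, 1048 and 1510.2 in reference RNA (0.03, adjusted p = 0.908). For Srsf10 the log2 fold changes ran from -0.24 to -2.29 over 4 probe sets, 3 of them lower. For Srsf11 they ran from -0.33 to -2.51, with 2 of 4 lower.

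For Sf3b1 the brightest probe set and the others gave different calls. Probe set 1418562_at gave 1382, 1339 and 1475 in kidney, against 3771, 4859 and 3877 in reference RNA (log2 fold change -1.56, adjusted p = 0.000438). Probe set 1449138_at gave 1526, 1394 and 1654 in kidney, against 3944, 4497 and 3601 in reference RNA (log2 fold change -1.39, adjusted p = 0.000621), and 1418561_at fell by 0.63. Hnrnpc and Hnrnpf were alike in this: 1460240_a_at of Hnrnpc gave 2990.2, 2800.3 and 2909 in kidney, against 4153, 4232 and 4265 in reference RNA (log2 fold change -0.54, adjusted p = 0.00826), and 2 of 4 probe sets of Hnrnpf fell, by 0.71 and 0.64.

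The reverse held for Hnrnph1, whose brightest probe set was lower while 1437267_x_at gave 2341, 1822 and 2093 in kidney, against 1989, 1345 and 2596 in reference RNA, with overlap and a log2 fold change of 0.12 (adjusted p = 0.716). Hnrnpa2b1, an hnRNP of the same subfamily as Hnrnpa1, was lower by all 4 probe sets, with log2 fold changes of -0.46, -0.55, -0.74 and -2.11.

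Snrpb2 came nearest to opposite calls. Its probe sets 1452422_a_at and 1426613_a_at fell by 1.46 and 1.26, while the dim 1452131_at gave 94.9, 74.9 and 93.7 in kidney, against 40.4, 55.0 and 80.4 in reference RNA, with overlap and no call (log2 fold change 0.60, adjusted p = 0.0973). That probe set was called higher after centring (adjusted p = 0.0369), after quantile normalisation (adjusted p = 0.0348) and without the third reference array at 10 ng (adjusted p = 0.0269), so 1 member was then discordant.

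The second set of comparisons asked how the amount of input RNA changed the values, within the reference RNA at 0.3, 3 and 10 ng. The splicing genes showed no call by limma in any of these comparisons. With 3 ng against 10 ng, 0 of 49 members were called and 0.0% of all tested genes, and 3 members had an unadjusted p under 0.05, as had 8.46% of all tested genes. With 0.3 ng against 10 ng, 0 members were called and 0.554% of all tested genes, and 1 member had an unadjusted p under 0.05, as had 13.4% of all tested genes. With 0.3 ng against 3 ng, 0 members were called and 0.172% of all tested genes, and again 1 member had an unadjusted p under 0.05, as had 10.9% of all tested genes. The lowest adjusted p among the members was 0.321, 0.221 and 0.234 in that order of comparisons, and 0 of the 135 tested probe sets of the members were called in any of them, where 0.0%, 0.796% and 0.241% of all tested probe sets were.

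The members kept close to their level at 3 ng. Against 10 ng, 47 of 49 lay within 0.5 on the log2 scale, 95.9%, against 81.9% of all tested genes, with medians of -0.01 and -0.05. At 0.3 ng against 10 ng, 39 of 49 lay within 0.5, 79.6%, against 56.8% of all tested genes. The middle of the members' log2 fold changes then ran from -0.29 to 0.32 between the quartiles, against -0.71 to 0.16 for all tested genes. At 0.3 ng against 3 ng, 46 of 49 lay within 0.5, 93.9%, against 58.9% of all tested genes. The 2 comparisons against 10 ng share the reference arrays at 10 ng. The members were bright, with a median signal of 3862 in reference RNA at 10 ng. The median of all probe sets averaged 69.8 on those arrays. The shares were not matched for signal, and the part of signal level in these differences was not tested.

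Spread between arrays grew at the lowest input. The median coefficient of variation over the members was 18.2% at 0.3 ng, 8.9% at 3 ng and 8.7% at 10 ng, against 42.6%, 18.7% and 14.6% over all tested genes at the same inputs. On the kidney arrays it was 9.9% over the members and 14.0% over all tested genes. These spreads were not matched for signal either, and the members were bright.

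The groups did not overlap for 10 members at 3 ng against 10 ng, 5 lower and 5 higher, where 17.6% of all tested genes did not overlap, 11.0% lower and 6.59% higher. At 0.3 ng against 10 ng they did not overlap for 18 members, 6 lower and 12 higher, where the share was 25.2%, with 17.8% lower and 7.46% higher. At 0.3 ng against 3 ng they did not overlap for 12 members, 2 lower and 10 higher, where the share was 21.5%, with 13.7% lower and 7.73% higher. The members' median at 0.3 ng against 10 ng was 0.14 and that of all tested genes -0.21, but after quantile normalisation these were 0.00 and -0.10, and after centring 0.57 and 0.22.

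**Figure D4:**
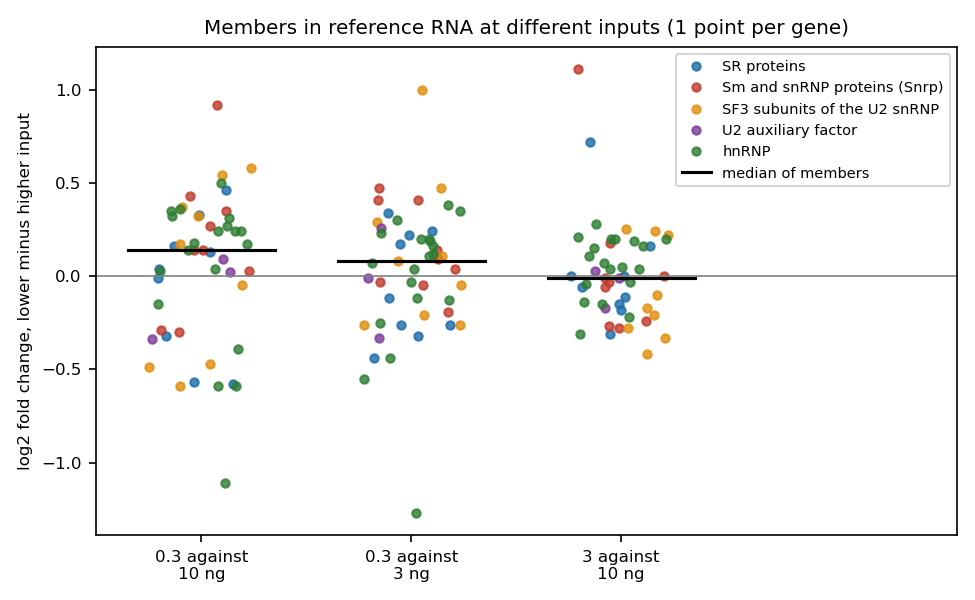
Log2 fold change of each tested member between inputs of reference RNA, lower minus higher input, 1 point per gene coloured by family, with a line at the members' median (0.14 for 0.3 against 10 ng, 0.08 for 0.3 against 3 ng, -0.01 for 3 against 10 ng). Hnrnpd lies lowest in both comparisons with 0.3 ng, at -1.11 and -1.27, and none of the points passed the test.

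Hnrnpd had the lowest log2 fold change of any member at 0.3 ng. Its brightest probe set gave 232, 527 and 333 at 0.3 ng, 800.2, 744 and 986 at 3 ng, and 728, 753 and 764 at 10 ng. All 3 arrays at 0.3 ng lay below all arrays at the higher inputs, with log2 fold changes of -1.11 against 10 ng (SE 0.346, adjusted p = 0.221) and -1.27 against 3 ng (SE 0.365, adjusted p = 0.234). With all 12 arrays in 1 fit, these passed the test at the same log2 fold changes (limma, adjusted p = 0.048 and 0.0317). Its other probe sets, 1457568_at and 1458273_at, gave 35.8, 59.3 and 378, and 1.2, 28.3 and 456, at 0.3 ng, against 299, 369 and 354, and 176, 191 and 242, at 10 ng, so that 1 of the 3 arrays at 0.3 ng was as high as those at 10 ng.

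Sf3a2, a subunit of SF3A, had the largest positive value at 0.3 ng against 3 ng. It gave 1119, 1285 and 3789 at 0.3 ng, 867, 865 and 909 at 3 ng, and 1304, 1085 and 1159 at 10 ng. The log2 fold change of 1.0 against 3 ng did not pass (SE 0.505, adjusted p = 0.465), and it was 0.44 without the third array at 0.3 ng. Its dimmer probe set 1450576_a_at gave 62.6, 142 and 19.5 at 0.3 ng and 60.4, 94.7 and 89.1 at 3 ng, a log2 fold change of -0.46 (adjusted p = 0.804).

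Srsf9 and Snrpn moved most at 3 ng against 10 ng, neither past the test. Srsf9 gave 990.1, 1213 and 844 at 3 ng, against 555, 642 and 627 at 10 ng, without overlap (log2 fold change 0.72, SE 0.182, adjusted p = 0.363). At 0.3 ng its arrays were at 629, 529 and 1755. Snrpn gave 4.1, 49.3 and 45.5 at 0.3 ng, 29.4, 25.7 and 27.8 at 3 ng, and 8.6, 16.4 and 8.4 at 10 ng, and only 2 of these 9 arrays were above the background of 33.65.

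Srsf3, a small SR protein that also acts in RNA export, showed how probe sets of a gene parted at 0.3 ng. Its brightest probe set gave 5869, 7842 and 8054 at 0.3 ng, 9412, 8200 and 9316 at 3 ng, and 8861, 9299 and 8774 at 10 ng, a log2 fold change of -0.32 at 0.3 ng against 10 ng. Probe set 1416152_a_at gave 1022, 620.0 and 679 at 0.3 ng, against 1729, 1440 and 1595 at 10 ng, without overlap (log2 fold change -1.06, adjusted p = 0.169). Probe sets 1416151_at, 1434512_x_at and 1454993_a_at had log2 fold changes of -1.62, -1.38 and -1.08, none past the test. Probe set 1438215_at gave 431, 431 and 909 at 0.3 ng, against 581, 571 and 592 at 10 ng, with overlap and a log2 fold change of -0.07 (adjusted p = 0.943).

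Across the 34 members with more than 1 tested probe set, the gap between the highest and lowest log2 fold change was over 1 for 2 at 3 ng against 10 ng, Snrpb2 and Srsf11, 5.88% against 16.6% of all such genes. It was over 1 for 14 at 0.3 ng against 10 ng, 41.2% against 42.7%, and for 9 at 0.3 ng against 3 ng, 26.5% against 42.3%.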

How the data were processed

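The values used were deposited as 1 table, with an intensity for each probe set on each array. The authors scaled these intensities: the mean of each array, trimmed by 2% at both ends, is 500 per the file's values. The software and build behind them are not given in the sources used, and the labels do not describe the amplification. Totals do not apply to arrays, and the number of arrays, 3 per group, limits the precision.

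From these intensities log2(signal + 3.9) was computed, 3.9 being the 10th percentile of all positive values, so fold changes of low genes are understated. The 64 control probe sets were left out. Probe sets were tested when the highest group mean reached 65.4 (the 40th percentile), which 27022 did. Background was 33.65, the 95th percentile of 27 probe sets for Bacillus controls. For each pair of groups its 6 arrays were fitted by limma 3.58.1 under R 4.3.3, using lmFit followed by eBayes, with Benjamini-Hochberg adjustment over all tested probe sets and a threshold of 0.05. The scripts were tested on simulated data.

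Genes were named from the platform's annotation, updated through gene IDs: 34945 probe sets had 1 symbol, 932 several and 9160 none, and 34741 of those with 1 symbol matched by gene ID with 0 symbols changed. The 18 probe sets naming a gene of these families beside another gene were not used. Snrpa, Snrpd1, Snrpd2 and Hnrnpa3 were named only in such probe sets and so are not among the members. A gene is represented by its probe set with the highest mean over all arrays. Values on every array are given for the 4 called members with the largest log2 fold change in each group and direction in kidney and, for inputs, the 2 with the largest change. Of the other pathway lists up to 4 called genes per direction were named. Probe sets shown for disagreement within a gene were chosen after their values were seen. The members and lists were chosen with earlier results of these data known. "At least" folds set the bright group's geometric mean against the background.

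Alternatives were another pseudocount (16), no filter or one on the mean over the 12 arrays, quantile normalisation, centring, 1 fit of all 12 arrays, array weights, a trend in the spread, a replicate block, another representative probe set and leaving out each array. A further 2, using all probe sets of a gene, were chosen after seeing the data.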

Additional observations from a re-analysis of the deposited data

How the results depend on the processing

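In kidney against reference RNA at 10 ng, the members' median log2 fold change of -0.76 became -0.52 after centring, -0.81 with representatives whose probe set names lack the _x_at and _s_at endings and -0.85 with the median of all probe sets of a gene. The number called, 38, became 24 when every probe set had to be called, and was 30 to 41 under the other settings, with leave-one-out values of 34 to 36. Leave-one-out medians ran from -0.82 to -0.73. The count of members with opposite calls was 1 after quantile normalisation and 1 after centring, and 0 to 1 when an array was left out. At 3 ng against 10 ng the median of -0.01 became -0.11 after centring and 0.04 with all probe sets. At 0.3 ng against 10 ng the median of 0.14 became 0.00 after quantile normalisation, 0.57 after centring, 0.04 with the other representatives and 0.06 with all probe sets, and 1 member, Hnrnpd, was called with all 12 arrays in 1 fit. At 0.3 ng against 3 ng the median of 0.08 became -0.05, 0.61, -0.02 and 0.01 under the same 4 settings. It was 0.02 to 0.15 with an array left out, and 1 member, Hnrnpd, was called in the fit of 12 arrays. The fit of 12 arrays takes 1 spread for all groups, although the arrays at 0.3 ng spread more, so its calls at 0.3 ng are less secure. Sf3a2 at 0.3 ng against 3 ng turned to -0.46 with the other representative. Centring and quantile normalisation shift all genes of an array by construction, and the cause of the other changes was not tested. With the replicate number as a block 34 members were called in kidney, against 38 without it, and 0 in each input comparison, and the 13 members with the largest called changes in their groups kept their call. Arrays of different groups that share a number did not deviate together, their correlations running from -0.063 to 0.012. These values gave no sign that the numbers pair the arrays. They cannot exclude shared handling, since deviations from means of 3 arrays are mostly noise, and the labels do not say. All 207 alternatives run for those 13 members kept direction and call, but other members did not keep theirs: 29 were lower after centring and 35 after quantile normalisation, against 37. Signals near background limit Snrpn and Srsf12.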

Other observations

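The brightest probe set of a member gave a less negative log2 fold change in kidney than the median of its other probe sets for 22 of 34 members, 64.7%, against 52.9% of 5763 genes. The medians were -0.81 for the brightest probe sets of the members and -0.90 for the others, against -0.21 and -0.31 over the 5763 genes. Among members described only in part above, Hnrnpab had 5 of 7 probe sets called lower, with log2 fold changes of -1.43 to 0.03. Sf3a3 had both of its probe sets called lower, at -0.82 and -2.11.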
